A study of Mus musculus with 6 samples.

Results

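Collagen chain genes were compared in fibrotic mouse kidneys on a pair of genetic backgrounds. A gene was taken as a collagen chain when its symbol in the array annotation read Col, a number, the letter a and a number, as in Col1a1, and only exon rows that carried this 1 symbol were used. The rule found 40 genes among the 20416 measured, covered by 1861 of the 212097 exon rows with 1 symbol. An exon row is a probe set, a small group of probes placed on part of a transcript, and the rows of a gene report on the same RNA, so that they are not replicates. The rows per gene ran from 3 in Col10a1 to 114 in Col7a1. A further 2 rows carried a collagen symbol beside another gene and were left out.

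The CBAxB6-TGFbeta group held 3 kidneys (replicates 4, 5 and 6) from mice whose name joins the CBA and B6 strains and whose genotype label adds the word KO. The B6-TGFbeta group held 3 kidneys (replicates 1, 2 and 3) from mice of the B6 strain, whose label adds WT. Both groups carry TGFbeta in their names and share the disease state of an induced renal fibrosis, and no kidney without it was measured. The labels name no deleted gene and not the promoter or dose of the TGF-β1, and the ages were not given in the sources used here. Background, the KO and WT words, and any response to TGF-β1 follow the same split and cannot be told apart. The labels state that cohorts were matched for age and sex, but not that each array is a separate animal, so p-values measure the spread between these samples.

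Collagens are the main fibrous proteins of the extracellular matrix. Each molecule is a helix wound from alpha chains, and each chain has its own gene. Fibrillar collagens such as types I, III and V assemble into the banded fibrils of scar tissue, and FACIT collagens (fibril-associated collagens with interrupted helices) coat these fibrils. Type IV collagens form the sheets of basement membranes: the chains of Col4a1 and Col4a2 are found in nearly all of them, while those of Col4a3, Col4a4 and Col4a5 make up the mature glomerular basement membrane and are mutated in Alport syndrome. In kidney fibrosis interstitial collagen, made largely by fibroblasts and myofibroblasts, accumulates between the tubules.

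Of the 40 collagen genes, 4 were higher and 2 were lower in CBAxB6-TGFbeta kidneys, and 34 did not pass at an adjusted p under 0.05 (limma, two-sided, with Benjamini-Hochberg adjustment over all 20416 genes). Of the collagen genes 10.0% were higher and 5.0% lower, against 3.08% and 4.57% of all genes, where 7.65% passed in either direction. Col12a1 and Col8a1 stood 3.50-fold and 3.12-fold higher, Col5a2 and Col3a1 1.58-fold and 1.51-fold higher, and Col4a3 and Col4a4 fell to 0.722 and 0.758 of the B6-TGFbeta level. The median log2 difference, CBAxB6-TGFbeta minus B6-TGFbeta throughout, was 0.14 over the 40 collagen genes and 0.02 over all genes. It was positive in 31 of the 40 (77.5%) and in 53.9% of all genes. In 13 collagen genes (32.5%) the 3 CBAxB6-TGFbeta arrays all lay above the 3 B6-TGFbeta arrays, and in 3 (7.5%) they all lay below, where 13.5% and 13.4% of all genes did so. In such whole-kidney RNA a change in the number of cells of a type and a change in RNA per cell cannot be told apart.

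**Figure D1:**
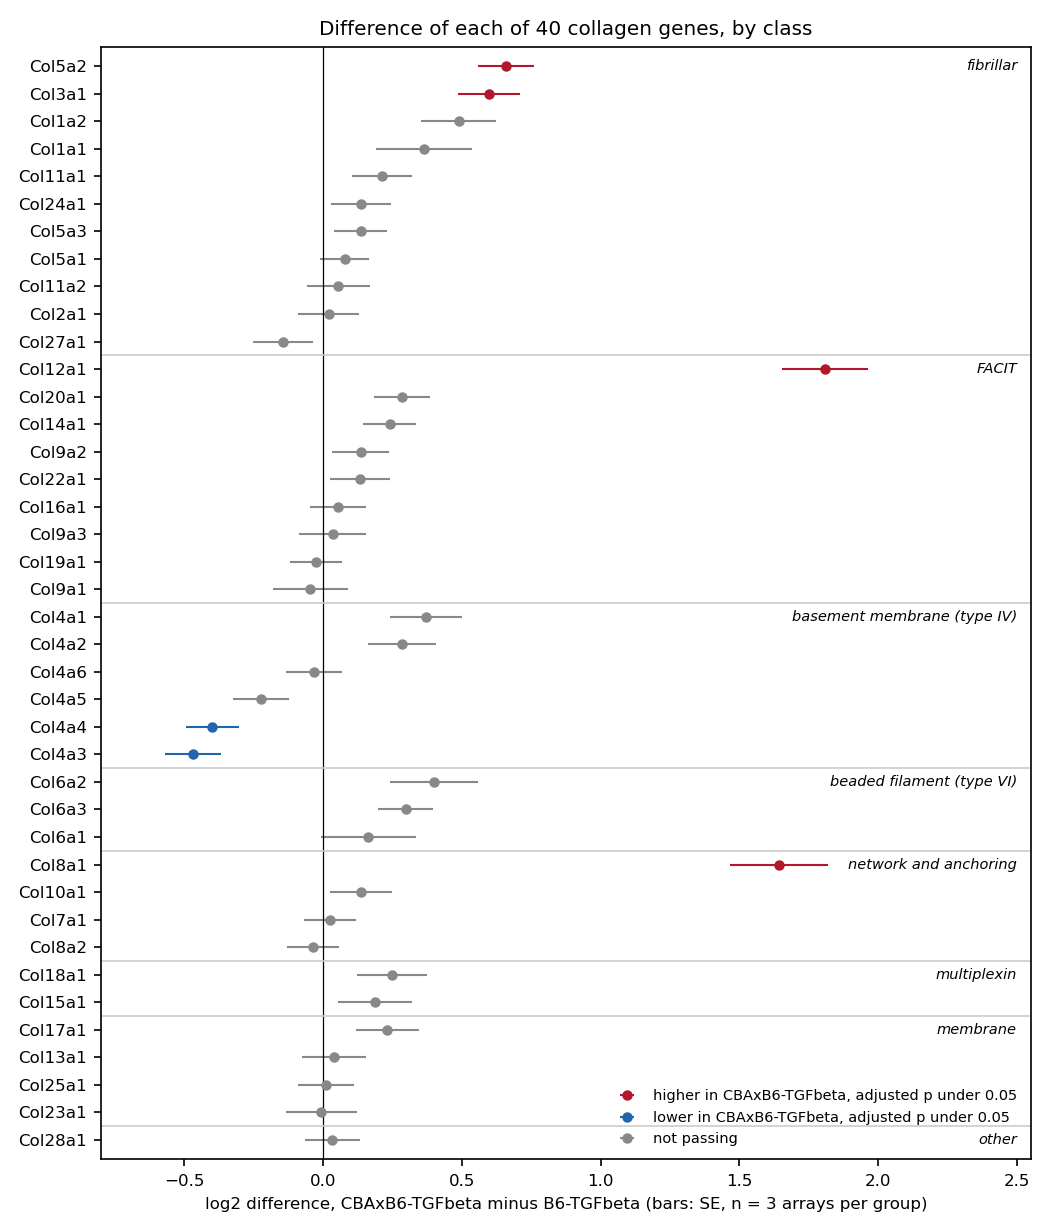
Log2 difference (CBAxB6-TGFbeta minus B6-TGFbeta) of each of the 40 collagen genes, grouped by class, with bars of 1 SE from limma over 3 arrays per group. Col12a1 at 1.81 and Col8a1 at 1.64 stand far to the right of the other genes, and Col4a3 at -0.47 and Col4a4 at -0.40 lie farthest to the left.

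Promoter sequence is shown for 3 of the genes described below, Col8a1 and Col3a1, which passed, and Col1a2, which came closest to the threshold among the rest. The stretches are the 250 bases before the gene start in RefSeq (build GRCm38.p6, printed 5′ to 3′ on the strand of the gene). Capitals mark the motifs searched for on both strands: the TATA box (TATAAA), the CCAAT box (CCAAT), the AP-1 site (TGANTCA), the site of EGR family factors (GCGNGGGCG), of which EGR2 is named in the series title, and the SMAD element (CAGACA), bound by mediators of TGF-β signals. The stretches lie at chr16:57754738-57754987 on the minus strand for Col8a1, at chr1:45311288-45311537 on the plus strand for Col3a1 and at chr6:4505368-4505617 on the plus strand for Col1a2.
Col8a1: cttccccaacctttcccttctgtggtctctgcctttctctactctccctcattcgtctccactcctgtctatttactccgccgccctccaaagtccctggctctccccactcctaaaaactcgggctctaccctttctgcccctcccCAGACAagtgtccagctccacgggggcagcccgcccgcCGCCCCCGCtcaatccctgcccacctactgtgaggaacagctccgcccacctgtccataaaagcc
Col3a1: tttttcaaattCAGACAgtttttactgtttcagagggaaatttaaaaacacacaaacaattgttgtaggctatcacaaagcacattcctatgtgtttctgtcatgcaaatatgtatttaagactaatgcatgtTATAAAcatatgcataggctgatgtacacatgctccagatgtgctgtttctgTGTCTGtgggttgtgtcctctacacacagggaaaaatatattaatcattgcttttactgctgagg
Col1a2: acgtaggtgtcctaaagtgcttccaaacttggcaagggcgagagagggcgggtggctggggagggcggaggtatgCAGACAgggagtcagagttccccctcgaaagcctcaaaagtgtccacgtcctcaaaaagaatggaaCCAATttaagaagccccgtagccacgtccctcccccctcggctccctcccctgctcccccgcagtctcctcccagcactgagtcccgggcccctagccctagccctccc

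The Col8a1 stretch held 1 EGR match, starting 65 bases before the gene start and read on the opposite strand, and 1 SMAD match. The Col3a1 stretch held 1 TATA match, starting 117 bases before the gene start, and 2 SMAD matches. The Col1a2 stretch held 1 CCAAT and 1 SMAD match. No match overlapped another in these 3 stretches. RefSeq promoters were at hand for 32 of the 40 genes, in 35 windows. EGR matches stood in 1 of the 35 collagen windows (2.86%), that of Col8a1, against 4.70% of 32851 mouse promoter windows. SMAD matches stood in 9 of 35 (25.7%) against 17.1%, and CCAAT matches in 12 of 35 (34.3%) against 33.8%. TATA matches stood in 5 of 35 (14.3%) against 12.4% and AP-1 matches in 1 of 35 (2.86%, that of Col6a1) against 6.75%. A match of letters is a description of the window and not a bound site.

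Col12a1, which encodes a FACIT collagen found along type I collagen fibrils, showed the largest difference of the 40 genes. Its log2 intensity was 11.05, 10.74 and 10.51 in CBAxB6-TGFbeta replicates 4, 5 and 6, against 8.72, 9.08 and 9.07 in B6-TGFbeta replicates 1, 2 and 3. The lowest CBAxB6-TGFbeta array thus lay well above the highest B6-TGFbeta array. The means were 10.77 ± 0.27 and 8.96 ± 0.21 (SD, n = 3 each), with a log2 difference of 1.81 (SE 0.16, limma adjusted p 0.000481). The signal was spread along the transcript: 67 of the 68 exon rows of Col12a1 were positive, with quartiles of 1.41 and 2.13, and in 57 rows the groups did not overlap. Tested row by row, 39 of the 68 passed, all higher, by 1.60 to 2.90. Over all rows 0.279% passed as higher and 0.351% as lower. The groups did not overlap in 10.0% of all rows as higher and in 10.7% as lower. The share of positive rows over all rows was not counted. The 1 negative Col12a1 row stood at -0.62, with 6.42 ± 0.56 in CBAxB6-TGFbeta and 7.04 ± 0.48 in B6-TGFbeta (SD, n = 3 each), and did not pass.

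The other 8 FACIT genes did not pass, and their log2 differences ran from -0.05 in Col9a1 to 0.28 in Col20a1. Col14a1 encodes a FACIT chain closely related to that of Col12a1. Its log2 intensities were 10.44, 10.53 and 10.38 in CBAxB6-TGFbeta replicates 4, 5 and 6 and 10.15, 10.20 and 10.27 in B6-TGFbeta replicates 1, 2 and 3. The groups did not overlap, but the log2 difference of 0.24 (SE 0.09, limma adjusted p 0.179) missed the threshold, with an unadjusted 95% interval of 0.03 to 0.45. That interval lies wholly below the one of Col12a1, 1.46 to 2.16. Col20a1 also had groups that did not overlap (limma adjusted p 0.139). The chains of type IX (Col9a1, Col9a2 and Col9a3), which belong to cartilage, lay between -0.05 and 0.13, and Col16a1, Col19a1 and Col22a1 between -0.03 and 0.13.

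Col8a1 encodes a chain of type VIII collagen, a short network-forming collagen of vessel walls and of Descemet's membrane in the eye. Its log2 intensity was 9.0, 9.24 and 9.04 in CBAxB6-TGFbeta replicates 4, 5 and 6, against 7.01, 7.70 and 7.66 in B6-TGFbeta replicates 1, 2 and 3. The CBAxB6-TGFbeta arrays lay close together and above the others, among which replicate 1 was lowest. The log2 difference was 1.64 (SE 0.18, limma adjusted p 0.00108), with means of 9.10 ± 0.13 and 7.45 ± 0.39 (SD, n = 3 each). All 5 rows of Col8a1 were positive, from 1.13 to 1.80, and 3 passed row by row. The partner chain gene Col8a2 differed in this: it had 6.61, 6.76 and 6.64 in CBAxB6-TGFbeta and 6.67, 6.70 and 6.75 in B6-TGFbeta, with a log2 difference of -0.04 (SE 0.09, limma adjusted p 0.869) and an unadjusted 95% interval of -0.25 to 0.17. Of its 6 rows, 3 were positive. Col10a1, of hypertrophic cartilage, and Col7a1, of the anchoring fibrils under skin epithelium, stood at 0.14 and 0.02 and did not pass. The 114 rows of Col7a1 had a median of 0.04.

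**Figure D2:**
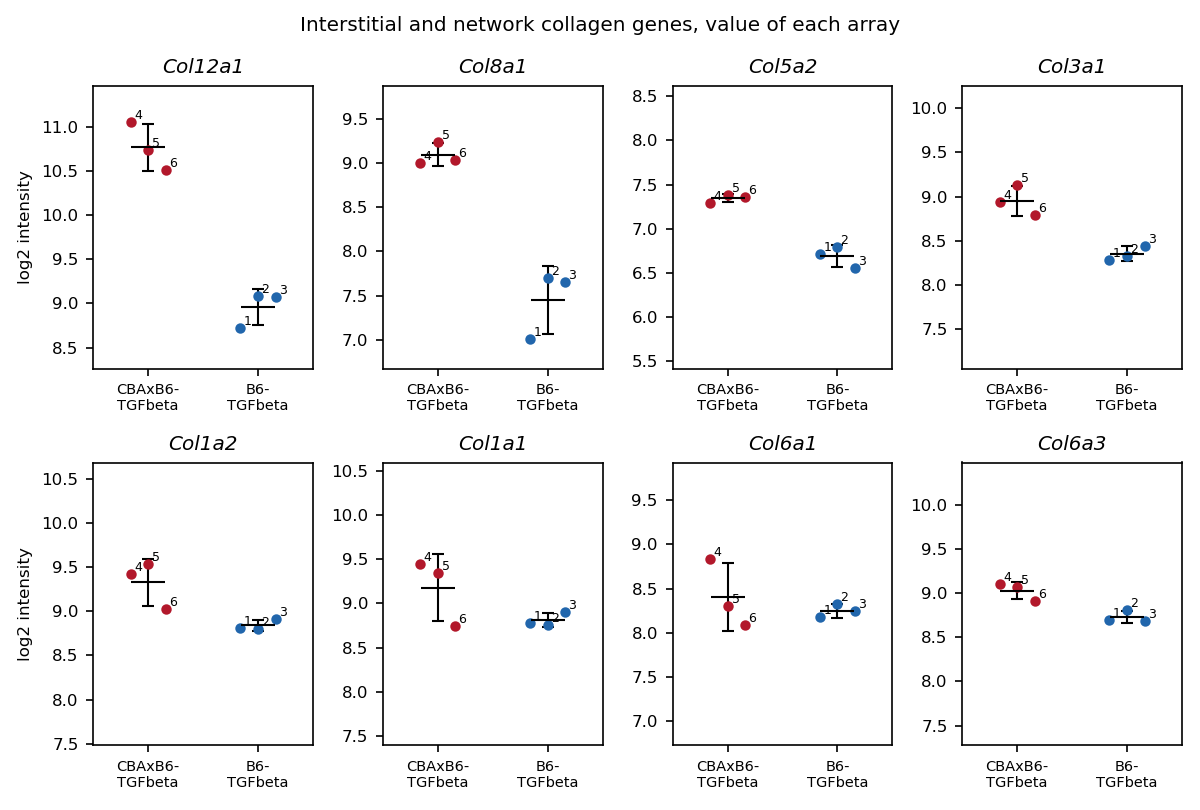
Log2 intensity of 8 collagen genes in each array, with CBAxB6-TGFbeta at the left and B6-TGFbeta at the right of each panel. Numbers are replicates, black lines are means with bars of 1 SD (n = 3), and every panel spans the same range of log2 units. Col12a1 and Col8a1 show the widest gap between groups, while in Col1a1 and Col6a1 replicate 6 of CBAxB6-TGFbeta lies below all B6-TGFbeta arrays.

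Among the 11 fibrillar genes, Col5a2 and Col3a1 were higher, the other 9 missed the threshold, and there was a class median of 0.14 and positive differences in 10. Col5a2 encodes a chain of type V collagen, which starts and sizes fibrils. Its log2 intensity was 7.29, 7.38 and 7.36 in CBAxB6-TGFbeta replicates 4, 5 and 6, against 6.71, 6.80 and 6.55 in B6-TGFbeta replicates 1, 2 and 3. The 3 values of each group were tightly bunched and did not overlap, and the log2 difference was 0.66 (SE 0.10, limma adjusted p 0.00587). Its rows varied widely. Of 57 rows, 50 were positive, the quartiles were 0.29 and 1.18, and the extremes were -1.08 and 2.24. The brighter rows moved more than the dimmer ones, with medians of 0.86 and 0.53, and the 7 rows that passed ran from 1.35 to 2.24. With the brightest row of each gene in place of the summary, Col5a2 stood at 1.63 (limma adjusted p 0.00489).

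Col3a1 encodes type III collagen, a major component of early scar matrix. Its log2 intensity was 8.94, 9.13 and 8.79 in CBAxB6-TGFbeta replicates 4, 5 and 6, against 8.29, 8.33 and 8.44 in B6-TGFbeta replicates 1, 2 and 3. The groups did not overlap and the log2 difference was 0.60 (SE 0.11, limma adjusted p 0.0148). Of its 51 rows 49 were positive, with quartiles of 0.31 and 0.84, and 2 passed, at 1.47 and 2.42. In 32 rows the groups did not overlap, all as higher, where 10.0% of all rows did so. With the brightest row alone the difference of Col3a1 was 0.26 (limma adjusted p 0.304), and without B6-TGFbeta replicate 1 or CBAxB6-TGFbeta replicate 5 the gene missed the threshold at 0.56 and 0.51 (limma adjusted p 0.0763 and 0.0524). Col3a1 and Col5a2 are neighbours on chromosome 1 in the RefSeq annotation.

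The type I collagen chains, which form the bulk of scar fibrils, did not pass over all 6 arrays. Col1a2 had log2 intensities of 9.43, 9.53 and 9.03 in CBAxB6-TGFbeta replicates 4, 5 and 6, against 8.81, 8.80 and 8.91 in B6-TGFbeta replicates 1, 2 and 3. The groups did not overlap, though replicate 6 came close to the B6-TGFbeta arrays, and the log2 difference was 0.49 (SE 0.14, limma adjusted p 0.0618). Col1a1 had 9.45, 9.34 and 8.74 in CBAxB6-TGFbeta, against 8.78, 8.76 and 8.90 in B6-TGFbeta. Here replicate 6 of CBAxB6-TGFbeta was the lowest of all 6 arrays, the groups overlapped, and the log2 difference was 0.36 (SE 0.17, limma adjusted p 0.266), with an unadjusted 95% interval of -0.02 to 0.75. Without that replicate Col1a1 and Col1a2 stood at 0.58 and 0.64 and passed (limma adjusted p 0.0140 and 0.00859). Col1a2 also passed with arrays centred on the median, without the dimmer 50% of rows, without the dimmest 25% of genes and with array weights. The rows leaned the same way as the genes, with 46 of 52 positive in Col1a2 and 43 of 52 in Col1a1, and none passed row by row. SDs in CBAxB6-TGFbeta were 0.27 for Col1a2 and 0.38 for Col1a1, against 0.06 and 0.08 in B6-TGFbeta.

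The other fibrillar genes moved little. Col11a1, whose product can join type V chains, stood at 0.21 with groups that did not overlap (limma adjusted p 0.307). Col5a1 and Col5a3, the partner chain genes of Col5a2, had log2 differences of 0.08 and 0.14, also with groups that did not overlap and without passing. The unadjusted 95% interval of Col5a1, -0.12 to 0.28, lay below that of Col5a2, 0.43 to 0.89. Col2a1, the main collagen of cartilage, and Col11a2 stood at 0.02 and 0.05. Col24a1 stood at 0.14, and Col27a1, the 1 fibrillar gene with a negative value, at -0.15.

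In the type IV class, Col4a3 and Col4a4 were lower and 4 genes did not pass, and the class median was -0.13. Col4a3 had log2 intensities of 7.68, 7.78 and 7.73 in CBAxB6-TGFbeta replicates 4, 5 and 6, against 8.13, 8.12 and 8.35 in B6-TGFbeta replicates 1, 2 and 3, a log2 difference of -0.47 (SE 0.10, limma adjusted p 0.0258). Col4a4 had 7.54, 7.66 and 7.59 in CBAxB6-TGFbeta, against 7.98, 7.91 and 8.09 in B6-TGFbeta, a difference of -0.40 (SE 0.10, limma adjusted p 0.0385). Every CBAxB6-TGFbeta array lay below every B6-TGFbeta array in both genes. The genes of these chains lie next to each other on chromosome 1 in the RefSeq annotation. Of the rows, 43 of 52 were negative in Col4a3 and 41 of 48 in Col4a4, with medians of -0.38 and -0.43. Only 1 of these rows passed, a Col4a4 row with 5.81 ± 0.05 in CBAxB6-TGFbeta and 7.03 ± 0.24 in B6-TGFbeta (SD, n = 3 each). On the brightest row alone the genes stood at -0.34 and -0.40 and did not pass. Leaving out 1 array at a time, with the gene values of the 6-array summary kept, gave -0.51 to -0.39 for Col4a3, which passed in 1 of 6 fits (without CBAxB6-TGFbeta replicate 6), and -0.44 to -0.35 for Col4a4, which passed in 0. On the mean of rows Col4a3 passed in 3 of 6 such fits and Col4a4 in 2, and with the summary recomputed over the 5 arrays both passed in 0.

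Col4a5, whose chain assembles with those of Col4a3 and Col4a4, had 7.01, 7.22 and 7.19 in CBAxB6-TGFbeta replicates 4, 5 and 6, against 7.41, 7.27 and 7.41 in B6-TGFbeta replicates 1, 2 and 3. The groups did not overlap, and the log2 difference of -0.22 (SE 0.10, limma adjusted p 0.244) did not pass. Of its 58 rows 42 were negative. Its neighbour on chromosome X, Col4a6, stood at -0.03, with 22 of 46 rows positive.

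The ubiquitous basement membrane chains had positive values. Col4a1 had log2 intensities of 9.17, 9.03 and 8.70 in CBAxB6-TGFbeta replicates 4, 5 and 6, against 8.60, 8.52 and 8.67 in B6-TGFbeta replicates 1, 2 and 3, and its difference of 0.37 (SE 0.13, limma adjusted p 0.131) did not pass. Col4a2, its neighbour on chromosome 8, had 8.56, 8.45 and 8.16 in CBAxB6-TGFbeta and 8.03, 8.09 and 8.19 in B6-TGFbeta, a difference of 0.28 (SE 0.12, limma adjusted p 0.216). In both genes replicate 4 was the highest CBAxB6-TGFbeta array and replicate 6 the lowest, and replicate 6 overlapped the B6-TGFbeta arrays in Col4a2. The rows were positive in 47 of 51 for Col4a1 and 41 of 48 for Col4a2. The unadjusted 95% intervals were 0.08 to 0.66 for Col4a1 and 0.01 to 0.56 for Col4a2, against -0.70 to -0.24 for Col4a3 and -0.62 to -0.18 for Col4a4. A test of one chain against another was not made.

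**Figure D3:**
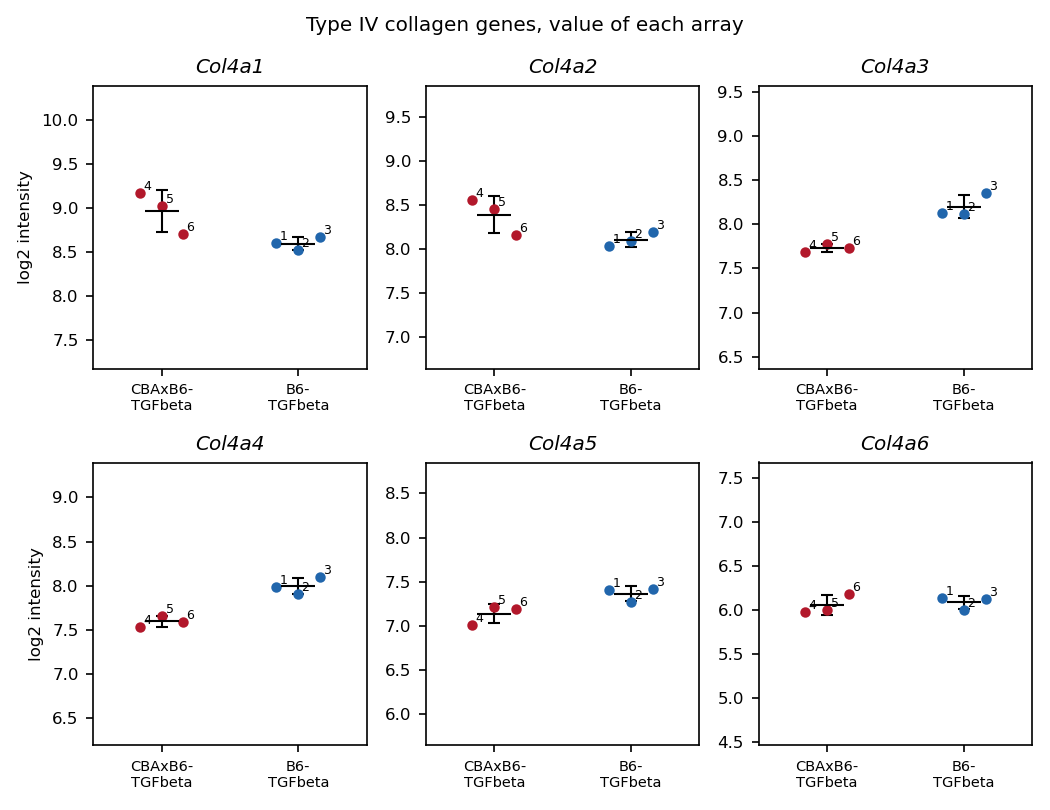
Log2 intensity of the 6 type IV collagen genes in each array, with CBAxB6-TGFbeta at the left and B6-TGFbeta at the right of each panel, replicate numbers beside the points and means with bars of 1 SD (n = 3). CBAxB6-TGFbeta arrays lie below B6-TGFbeta arrays in Col4a3, Col4a4 and Col4a5 and above them in Col4a1, while the groups overlap in Col4a2 and Col4a6.

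Podocytes make the Col4a3, Col4a4 and Col4a5 chains of the glomerular membrane, and some tubule segments make them too. Of 6 podocyte markers measured, Podxl (-0.64, SE 0.13), Ptpro (-0.48, SE 0.12) and Nphs1 (-0.44, SE 0.10) were lower and 3 did not pass, among them Wt1 at -0.13 and Synpo at 0.16. The summed linear intensity of the 6 markers was 1920 to 2395 in CBAxB6-TGFbeta and 2735 to 2921 in B6-TGFbeta. Of 9 kidney epithelium markers, which bear out the tissue label, 7 were lower and 2 did not pass. This list also holds Podxl and Nphs1, so the 2 lists are not separate. Of all genes, 4.57% were lower. The 9 log2 differences ran from -1.88 to -0.19, with a median of -0.75. In all 9 the CBAxB6-TGFbeta arrays lay below the B6-TGFbeta arrays, where 13.4% of all genes did so. Umod, of the thick ascending limb, was 11.96 to 12.12 in CBAxB6-TGFbeta and 12.18 to 12.27 in B6-TGFbeta. The sum over the list was 11920 to 13717 in CBAxB6-TGFbeta and 23061 to 26361 in B6-TGFbeta. No marker was at 0, since background gives a log2 intensity to every row. The part of these shifts in the Col4a3 and Col4a4 values was not tested. Laminins, nidogens and the other partners of type IV collagen in basement membranes did not pass in any of 11 genes, with values from -0.25 in Hspg2 (perlecan) to 0.16 in Pxdn, the peroxidasin that cross-links type IV collagen.

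The type VI chains, which form beaded filaments around cells, did not pass. Col6a2 stood at 0.40 (SE 0.16), Col6a3 at 0.30 (SE 0.10) and Col6a1 at 0.16 (SE 0.17), with limma adjusted p of 0.183, 0.112 and 0.658. Col6a3 had log2 intensities of 9.10, 9.07 and 8.92 in CBAxB6-TGFbeta, against 8.70, 8.81 and 8.68 in B6-TGFbeta, and the groups did not overlap. Col6a1 had 8.84, 8.30 and 8.09 in CBAxB6-TGFbeta, against 8.17, 8.32 and 8.24 in B6-TGFbeta. Replicate 4 alone stood above the B6-TGFbeta arrays in Col6a1, and its brightest row gave -0.34. Both multiplexins, the endostatin precursor gene Col18a1 (0.25, SE 0.13) and Col15a1 (0.19, SE 0.13), had overlapping groups. The 4 membrane collagens ran from -0.01 in Col23a1 to 0.23 in Col17a1, a hemidesmosome component, and Col28a1 stood at 0.03. None of these 7 genes passed.

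Across the 40 genes the arrays of a group did not behave alike. In CBAxB6-TGFbeta, replicate 4 was the lowest of its group in 26 genes and the highest in 9. Replicate 5 was the highest in 16 and the lowest in 0, and replicate 6 the highest in 15 and the lowest in 14. Averaged over the 40 genes, though, replicates 4, 5 and 6 stood 0.09, 0.15 and 0.07 log2 units above the mean of all arrays. By that measure replicate 4 was not the lowest. In B6-TGFbeta, replicate 3 was the highest in 27 of the 40. These ranks were not counted over all genes, so they do not tell a shift of a whole array from one of collagen genes. The SD was larger in CBAxB6-TGFbeta than in B6-TGFbeta in 25 of the 40 genes and in 60.2% of all genes.

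The median log2 intensity of an array was 7.27 to 7.34. Markers of tissue next to the kidney differed between arrays of a group, most in B6-TGFbeta replicate 2. Ucp1, of brown fat, was 5.68 to 6.22 in the 3 CBAxB6-TGFbeta arrays and 10.93 in B6-TGFbeta replicate 2. Adipoq, of fat, was 6.58 in CBAxB6-TGFbeta replicate 4 and 4.95 in both other arrays of that group, and 8.57 in B6-TGFbeta replicate 2. Car3, also of fat, was 8.73, 7.01 and 6.90 in CBAxB6-TGFbeta replicates 4, 5 and 6 and 7.42, 10.52 and 6.10 in B6-TGFbeta replicates 1, 2 and 3. Star, of the adrenal gland, was 5.86 to 6.44 in CBAxB6-TGFbeta, 8.90 in B6-TGFbeta replicate 1 and 10.74 in B6-TGFbeta replicate 2. The 10 fat markers other than Pck1, which proximal tubules also express, summed to 1113 to 1825 in CBAxB6-TGFbeta and to 1157 to 6029 in B6-TGFbeta, and the 10 adrenal markers to 508 to 551 in CBAxB6-TGFbeta and 532 to 6433 in B6-TGFbeta. Without B6-TGFbeta replicate 2 the log2 differences were 1.87 for Col12a1, 1.76 for Col8a1, 0.71 for Col5a2 and 0.59 for Col3a1, which passed, and -0.51 for Col4a3 and -0.44 for Col4a4, which did not (limma adjusted p 0.0507 and 0.0681). With both B6-TGFbeta replicates 1 and 2 left out, where the lone array is assumed to vary like the other group, the values were 1.69, 1.44, 0.79, 0.51, -0.62 and -0.50 in the same order of genes, and only Col8a1 passed (limma adjusted p 0.0369). Only 45 of all genes passed in that fit.

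**Figure D4:**
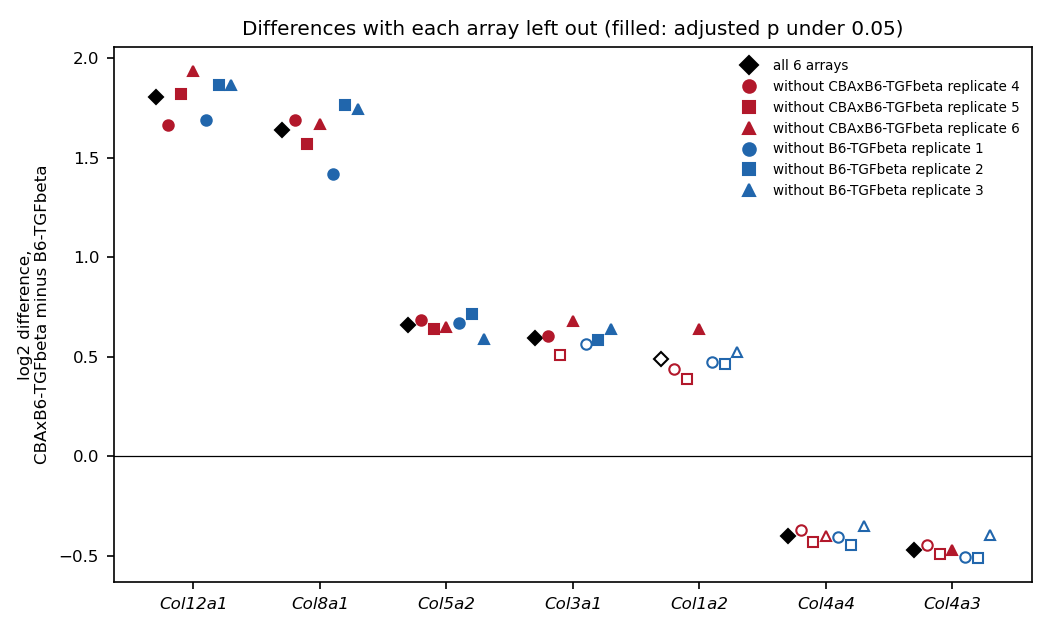
Log2 difference (CBAxB6-TGFbeta minus B6-TGFbeta) of 7 collagen genes over all 6 arrays and with each array left out, where filled symbols passed at an adjusted p under 0.05. The values kept their sign in all of these fits. With the gene values of the 6-array summary kept, Col12a1, Col8a1 and Col5a2 stayed filled throughout, and Col1a2 is filled only without CBAxB6-TGFbeta replicate 6.

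When the gene summary was recomputed over the 5 arrays left, Col12a1 and Col8a1 passed in 2 of 6 fits each, and Col5a2 and Col3a1 in 0, where 57 to 554 of all genes passed. On the mean of rows Col12a1, Col8a1 and Col5a2 passed in 6 of 6 and Col3a1 in 5.

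Of the 1861 rows of all 40 genes, 51 (2.74%) passed as higher and 1 (0.0537%) as lower, where 0.279% and 0.351% of all rows did so. All 52 belonged to 5 of the 6 genes that passed, 39 of them to Col12a1 and none to Col4a3. With any 1 array left out 0 to 15 rows passed as higher, the 15 without CBAxB6-TGFbeta replicate 6. The groups did not overlap in 299 rows (16.1%) as higher and 104 (5.59%) as lower, where 10.0% and 10.7% of all rows did so. In genes that did not pass, single rows reached 1.98 in Col1a1, 1.97 in Col11a1 and 2.43 in Col17a1 on the log2 scale, without passing. Others fell to -1.64 in Col9a1, -1.62 in Col27a1 and -1.51 in Col19a1, also without passing.

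**Figure D5:**
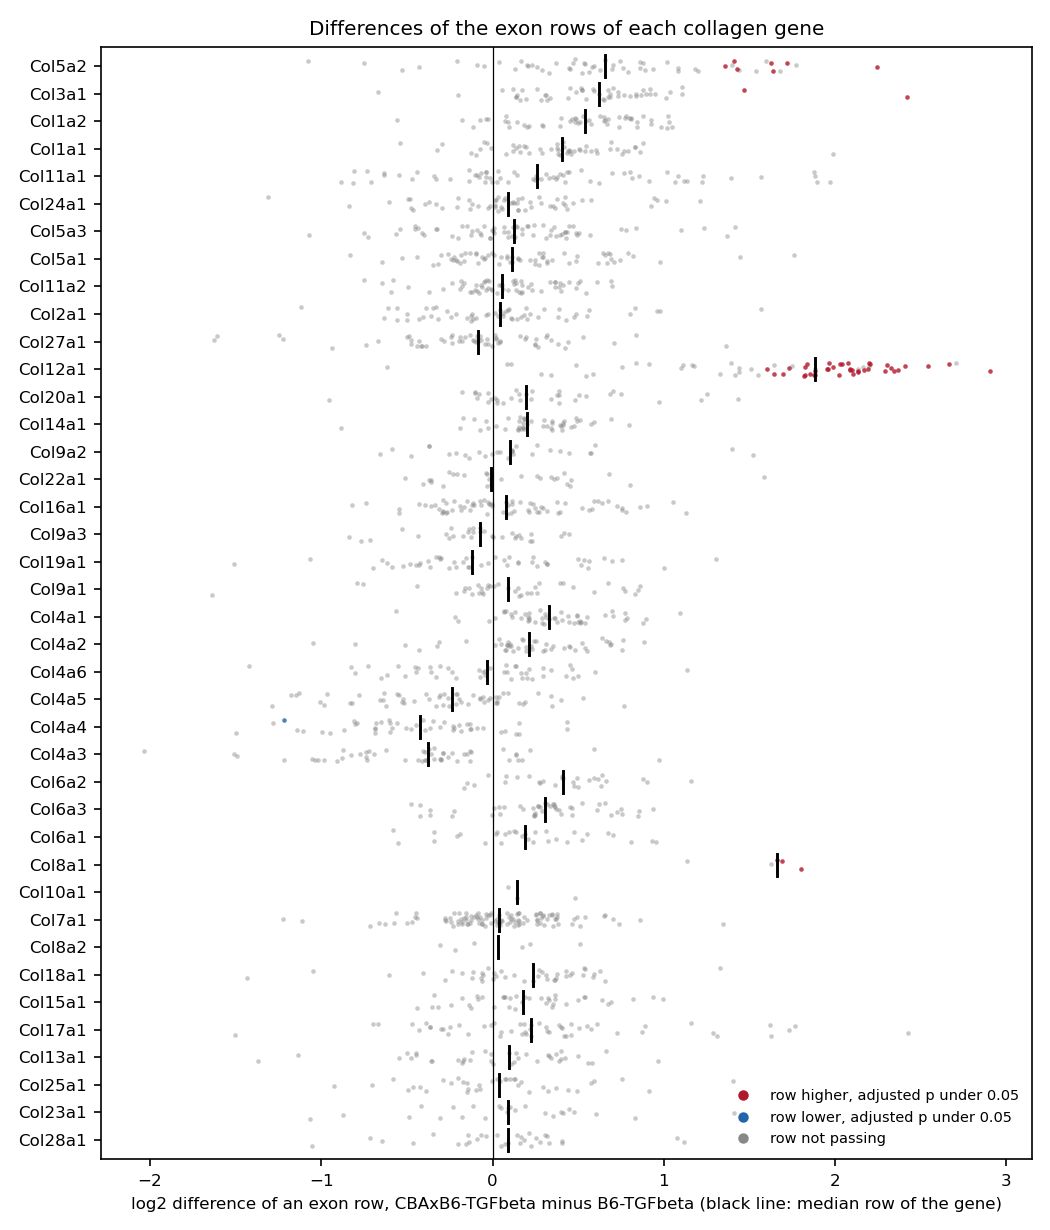
Log2 difference (CBAxB6-TGFbeta minus B6-TGFbeta) of every exon row of the 40 collagen genes, with a black line at the median row of each gene. Red and blue points passed row by row. The Col12a1 rows centre on 1.88 with 1 negative row, and the rows of Col4a3 and Col4a4 centre on -0.38 and -0.43.

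Lists of genes that build, bind and remove collagen each held at least 1 gene that passed, where 7.65% of all genes did so (3.08% higher and 4.57% lower). Of 20 genes for folding and modifying procollagen, P4ha3, a prolyl hydroxylase subunit (0.74, SE 0.19), was higher. Glt25d2, now Colgalt2, a collagen galactosyltransferase (-1.06, SE 0.12), and Leprel1, now P3h2, a prolyl hydroxylase known to act on type IV collagen (-0.48, SE 0.10), were lower, and 17 did not pass. The collagen chaperone gene Serpinh1 stood at 0.29 and Crtap at 0.48 without passing. Glt25d2 had 6.41, 6.16 and 6.46 in CBAxB6-TGFbeta replicates 4, 5 and 6, against 7.59, 7.31 and 7.30 in B6-TGFbeta replicates 1, 2 and 3. The list median was 0.12.

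Of 14 genes that trim and cross-link procollagen, the lysyl oxidase family gene Loxl2 (0.78, SE 0.20) was higher. The other 13 did not pass, among them Lox at 0.47 (SE 0.14), so the share that passed was near the 7.65% of all genes. Of 9 receptors, Itga2, an integrin subunit that binds collagen (1.16, SE 0.12), and Ddr2, a receptor kinase for fibrillar collagen (0.44, SE 0.11), were higher. The other 7 did not pass. Itga2 had 8.65, 8.50 and 8.53 in CBAxB6-TGFbeta, against 7.48, 7.56 and 7.19 in B6-TGFbeta, and the groups did not overlap. Of 15 genes of collagen breakdown and its inhibitors, Timp1 (2.88, SE 0.19) and the neutrophil collagenase Mmp8 (0.95, SE 0.14) were higher, Timp3 (-0.46, SE 0.10) was lower and 12 did not pass, with the gelatinase Mmp2 at -0.41 and Mmp14 at 0.59. Of 15 partners of the fibril surface, the proteoglycan lumican (Lum, 1.54, SE 0.37) was higher, Prelp (-0.83, SE 0.12) and the tenascin Tnxb (-0.50, SE 0.13) were lower and 12 did not pass, among them decorin (Dcn) at 0.26 and Sparc at -0.01. In the 6 fits with 1 array left out and the gene values kept, Itga2, Glt25d2, Timp1, Mmp8 and Prelp passed in all 6, P4ha3, Timp3 and Lum in 2, and Loxl2, Ddr2, Leprel1 and Tnxb in 1. With the summary recomputed over 5 arrays, Itga2 and Timp1 passed in 4 of 6, Glt25d2 in 2, and Mmp8 and Prelp in 0. On the mean of rows these 5 passed in 6 of 6, Loxl2 and Timp3 in 3, P4ha3, Lum and Tnxb in 2, and Ddr2 and Leprel1 in 1.

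Of 14 fibroblast, pericyte and myofibroblast markers, Vim (0.91, SE 0.14), which other cells also express, and Cnn1 (1.04, SE 0.20) were higher, and 12 missed the threshold, from -0.70 (SE 0.24) in Dpt to 1.04 (SE 0.27, limma adjusted p 0.0501) in Mfap5, with Tagln at 0.71, Acta2 at 0.55, Pdgfrb at 0.01 and Pdgfra at -0.11. Their summed linear intensity was 10861 to 14425 in CBAxB6-TGFbeta and 8243 to 9882 in B6-TGFbeta. For this and the lists that follow, 3.08% of all genes were higher and 4.57% lower. Of 7 macrophage markers 6 were higher, led by Msr1 (2.19, SE 0.15), with sums of 3049 to 5220 in CBAxB6-TGFbeta and 1501 to 2098 in B6-TGFbeta. Of 7 endothelium markers Kdr and Cdh5 were lower (-0.57 and -0.37) and 5 did not pass. All 7 were negative, from -0.57 to -0.24, and their groups did not overlap, where 13.4% of all genes lay below in this way. The sums were 5928 to 6755 in CBAxB6-TGFbeta and 7727 to 8248 in B6-TGFbeta. Among 8 parietal and urothelial markers Cldn1 was higher (1.08, SE 0.11) and 7 did not pass. The median of this list was -0.02, with 4 values positive and 4 negative, and the groups did not overlap in 1 gene. Its sums, in which bright genes weigh most, were 3594 to 4254 in CBAxB6-TGFbeta and 2593 to 2824 in B6-TGFbeta. The part of these shifts in the collagen values was not tested.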

How the data were processed

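RNA of 6 mouse kidney samples was measured on an Affymetrix mouse gene array, 3 arrays per group, and grouped by the titles. The deposited table holds log2 intensities per exon probe set. The authors used RMA and Partek, per the submitters' processing notes, while their versions, settings and the genome build were not stated there. Depth has no meaning for arrays, and their number limits the precision.

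Of 241576 rows, 212097 carried 1 symbol, 4475 several and 25004 none. The first kind gave 20416 gene values, each a median polish (Tukey) over the rows of the gene. All 40 collagen symbols were current in RefSeq (GRCm38.p6, used for names, neighbours and promoters). Differences were fitted with limma 3.58.1 (R 4.3.3), 1 group term and moderated variances, per gene and per row, and adjusted by Benjamini-Hochberg over all genes or rows, with a threshold of 0.05. The calculations were tested on simulated data. The collagen genes and the other lists were chosen with earlier results of these data known. Every collagen gene could be named; of each pathway list, up to 6 passing genes with the smallest p, or 2 where none passed; of each marker list, the extremes. The non-collagen genes given as not passing, and some of the markers, were picked outside this rule after their values were seen. Alternatives were another normalization or centring, other gene summaries, filters on dim rows or genes, other variance models, array weights and each array left out.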

Additional observations from a re-analysis of the deposited data

How the results depend on the processing

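No paired analysis was possible because the groups share no replicate numbers. No collagen gene that passed changed sign under any alternative. Counts of collagen genes were 4 higher and 2 lower. Quantile normalization, the mean of rows, a variance trend and a robust prior left these counts as they were. Centring arrays on the median gave 5 higher (with Col1a2) and 1 lower, as did removing the dimmer 50% of rows. Removing the dimmest 25% of genes gave 5 higher (with Col1a2) and 2 lower, and array weights 6 higher (with Col1a2 and Col4a1) and 2 lower. The brightest row left 3 higher and 0 lower. Without moderation 0 were higher and 0 lower, where 63 of all genes passed. With B6-TGFbeta replicates 1 and 2 both left out, also chosen after seeing the data, 1 was higher and 0 lower. With each array left out and the gene values kept, 3 to 7 were higher (7 without CBAxB6-TGFbeta replicate 6) and 0 to 1 lower, and 494 to 1550 of all genes passed. When the median polish was repeated over the 5 arrays left, a choice made after seeing the data, 0 to 4 were higher, 0 were lower and 57 to 554 of all genes passed, and Col5a2 stood at 0.46 to 0.57 against 0.66 over 6 arrays and passed in 0 of 6 fits. On the mean of rows, also added later, 3 to 7 were higher, 0 to 2 lower and 709 to 1746 of all genes passed, with Col5a2 at 0.66 to 0.77. The cause was not tested. Of rows, 51 were higher and 1 was lower. A variance trend gave 96 and 8, and removing the dimmest 25% of rows 75 and 4. With quantile normalization 49 were higher and 0 lower, and with median centring 51 and 0. With each array left out 0 to 15 were higher and 0 lower. With B6-TGFbeta replicates 1 and 2 both left out it was 0 and 0. The deposited values hold no measure of background, so how far the dim genes rise above it is unknown.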
